A study of Rattus norvegicus with 8 samples.

Results

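The miR-130 and miR-301 family consists of the miRNAs of 4 hairpins, miR-130a, miR-130b, miR-301a and miR-301b, and 8 of the 620 mature miRNAs counted in these rat kidneys belong to it. They are the rows named rno-miR-130a, rno-miR-130b, rno-miR-301a and rno-miR-301b and, for the other arm of each hairpin, the same names with an asterisk. The members were taken by name, and the family was selected on the read counts described here, with its differences between AA-treated and control kidneys already known. The differences between the groups are therefore given as a description, and no p value is attached to them. Aristolochic acid (AA), found in Aristolochia plants, damages the kidney and causes cancer, and the comparison asks how a dose schedule known to cause kidney tumors changed miRNA levels. The 4 AA-treated rats received AA as its sodium salt by gavage, 10.0 mg/kg in 4 ml/kg at each of 5 treatments a week, and 4 controls received 0.9% sodium chloride as often. All 8 were male Big Blue rats, a transgenic Fisher 344 strain that carries a mutation reporter, so that controls and treated animals share the transgene. They were 6 weeks old at the start, were treated for 12 weeks according to the protocol and are labelled as 18 weeks old. The sample descriptions instead give 12 to 15 weeks of treatment, rising from rat 1 to rat 4 of each group. Each rat gave 1 small RNA library from a piece of whole kidney, and in such tissue fewer cells of a type and less RNA per cell cannot be told apart.

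A miRNA finds its mRNA targets mainly through its seed, bases 2 to 8 from the 5′ end, and miRNAs with the same seed share most predicted targets. Members of the miR-130 and miR-301 family share a seed and are known as regulators of PPARG, a nuclear receptor of metabolism and inflammation. The family has been studied in tumors, in fibrosis and in the remodelling of blood vessels. One arm of each hairpin is normally loaded and kept, and the other arm is mostly degraded, so that the asterisk forms are counted far less often. RefSeq mature sequences were matched to 7 of the 8 rows, all except rno-miR-301a. The main arms below are the 3′ arms of their hairpins, and they are shown because the seed defines the family while the remaining bases tell the members apart. Capitals mark the seed.

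rno-miR-130a: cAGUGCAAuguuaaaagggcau

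rno-miR-130b: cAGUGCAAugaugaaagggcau

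rno-miR-301b: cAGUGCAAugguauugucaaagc

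These 3 sequences have the same first 10 bases. rno-miR-130a and rno-miR-130b are both 22 bases long and differ at 2 positions, whereas rno-miR-301b has another 3′ part. The 5′ arms carry other seeds, and the pair that lies opposite rno-miR-130b and rno-miR-301b is shown because the form opposite rno-miR-130b also changed.

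rno-miR-130b*: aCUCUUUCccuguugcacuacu

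rno-miR-301b*: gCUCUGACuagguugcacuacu

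None of the 4 asterisk forms has the seed of the main arms. In the order of the GRCr8 gene table, Mir301b and Mir130b stand next to each other on the same strand, inside the span of the gene 2610318N02Rikl. Mir301a lies inside the spans of Ska2, a gene of chromosome segregation, and Prr11. Mir130a is overlapped on the opposite strand by another miRNA gene, Mir3590. The counts carry no genome build, so no coordinates are given.

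In the AA-treated kidneys the main arms of the neighbouring Mir301b and Mir130b rose, and the more abundant miR-130a and miR-301a did not pass the test. Of the 8 family rows, 3 rose and none fell (adjusted p under 0.05 and a fold change over 1.5 by the quasi-likelihood test of edgeR, run on all 620 miRNAs). They were rno-miR-130b, rno-miR-301b and rno-miR-130b*, all from the neighbouring hairpins. Over all 620 miRNAs, 5.81% rose by the same rule, and since the family was picked with this comparison in view, nothing is read from the difference. In the same 3 rows the lowest AA-treated rat exceeded the highest control rat, which held for 9.68% of all miRNAs, and in the other 5 rows the groups overlapped. The median log2 fold change was 0.46 over the 7 rows for which a fold can be given and 0.05 over all 620 miRNAs.

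**Figure D1:**
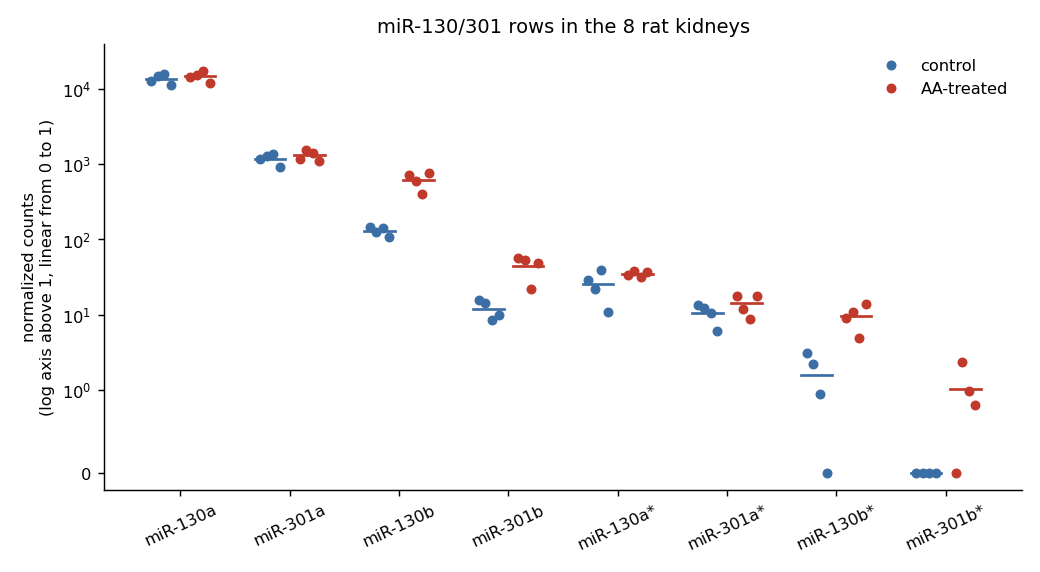
Normalized counts of the 8 family rows (y axis, logarithmic above 1 and linear from 0 to 1) in each control rat (blue) and AA-treated rat (red), with a bar at the mean of the 4 rats. The groups are apart for miR-130b, miR-301b and miR-130b* and overlap for the other 5 rows.

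The most changed main arm was rno-miR-130b, which has the family seed. It had 148, 124, 141 and 109 normalized counts in control rats 1 to 4 and 720, 599, 404 and 757 in AA-treated rats 1 to 4. The lowest AA-treated rat, number 3, was thus well above the highest control rat. The mean rose 4.75-fold, from 130 ± 17.5 to 620 ± 159 (SD, n = 4 each). The log2 fold change was 2.25, with a standard error of 0.26. Its place among the 620 miRNAs by mean level went from 222 to 150.

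rno-miR-301b, the main arm of the hairpin next to it, was much scarcer. Its deposited counts were 15, 13, 9 and 8 in control rats 1 to 4 and 50, 68, 22 and 59 in AA-treated rats 1 to 4. In normalized counts the control rats had 8.53 to 15.6 and the AA-treated rats 21.7 to 56.1, again with AA-treated rat 3 as the lowest of its group. The mean rose 3.71-fold, from 12.0 ± 3.42 to 44.7 ± 15.7 (SD, n = 4 each). The log2 fold change was 1.88, with a standard error of 0.39.

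rno-miR-130b*, the 5′ arm of the miR-130b hairpin, was near the limit of detection. It had 3, 2, 1 and 0 counts in control rats 1 to 4 and 8, 14, 5 and 17 in AA-treated rats 1 to 4. Every AA-treated rat had more counts than any control rat. Summed over the rats, 44 counts against 6 gave a 6.22-fold higher level per unit of size factor, with an exact 95% interval from 2.64 to 17.9 that covers counting error only. The log2 fold change was 2.53 with a standard error of 0.66. This rise no longer passed without control rat 3, without control rat 4 or without AA-treated rat 4, where the log2 fold change was 2.33, 2.17 and 2.31, respectively, and it was 1.97 and did not pass without both rats numbered 4. rno-miR-301b* had no count in the control rats and 0, 3, 1 and 1 counts in AA-treated rats 1 to 4, so that no fold change is given.

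The members that make up most of the family did not pass. rno-miR-130a, the most abundant, had 13025, 14800, 15707 and 11264 normalized counts in control rats 1 to 4 and 14572, 15465, 17649 and 12133 in AA-treated rats 1 to 4. The groups overlapped, with the rats numbered 4 lowest in both groups. The means were 13699 ± 1969 and 14955 ± 2282 (SD, n = 4 each). The log2 fold change was 0.13, with a standard error of 0.18. The approximate 95% interval from this standard error runs from 0.849-fold to 1.40-fold.

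rno-miR-301a, which lies in the Ska2 locus, had 1177, 1290, 1365 and 936 normalized counts in control rats 1 to 4. The AA-treated rats 1 to 4 had 1179, 1534, 1424 and 1119. Here too the groups overlapped, and control rat 4 was the lowest of all. The means were 1192 ± 188 and 1314 ± 197 (SD, n = 4 each). The log2 fold change was 0.14, with a standard error of 0.21, and the interval runs from 0.831-fold to 1.46-fold. The other arms of these hairpins did not pass either. For rno-miR-130a* the control rats ranged from 11.0 to 38.9 normalized counts and the AA-treated rats from 31.6 to 38.2, a log2 fold change of 0.46 with a standard error of 0.37. For rno-miR-301a* the ranges were 6.11 to 13.5 and 8.88 to 18.0, a log2 fold change of 0.41 with a standard error of 0.40.

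**Figure D2:**
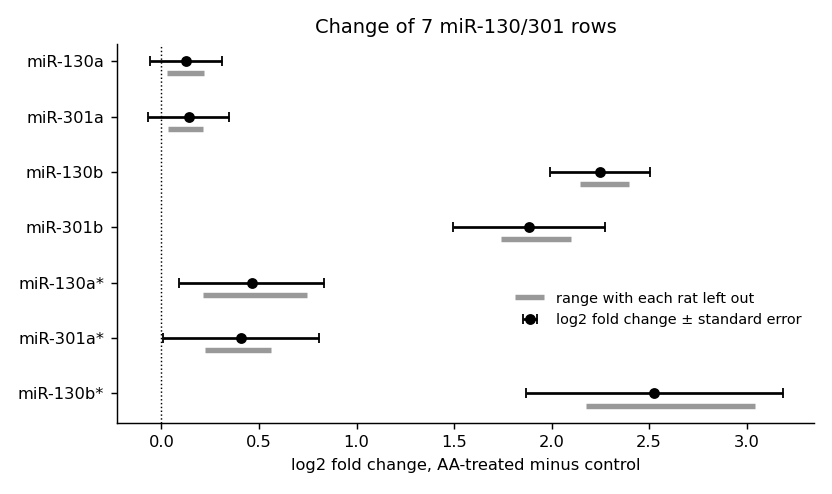
Log2 fold change between AA-treated and control rats (x axis) for the 7 family rows with a fold, as a point with its standard error, and as a grey bar the range when each of the 8 rats is left out in turn. The points of miR-130b, miR-301b and miR-130b* lie between 1.88 and 2.53 and the other 4 between 0.13 and 0.46.

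Counts of 2 members of the same library can be compared without any normalization, and these ratios separated the pairs in the same way. For every 100 counts of miR-130a there were 1.13, 0.839, 0.899 and 0.965 counts of miR-130b in control rats 1 to 4. In AA-treated rats 1 to 4 there were 4.94, 3.87, 2.29 and 6.24. The mean ratio was 4.52 times as high in the AA-treated rats, without overlap. miR-301b per 100 counts of miR-301a went from 1.03 ± 0.29 to 3.51 ± 1.43 (SD, n = 4 each), also without overlap.

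Within each pair, by contrast, the ratios of the groups overlapped. Control rats had between 6.04 and 11.5 counts of miR-301b per 100 counts of miR-130b, and AA-treated rats between 5.37 and 8.87. Control rats had between 8.31 and 9.03 counts of miR-301a per 100 counts of miR-130a, and AA-treated rats between 8.07 and 9.92. miR-130a and miR-301a, whose genes are on different chromosomes in GRCr8, had ratios between 8.07 and 9.92 in all 8 kidneys.

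**Figure D3:**
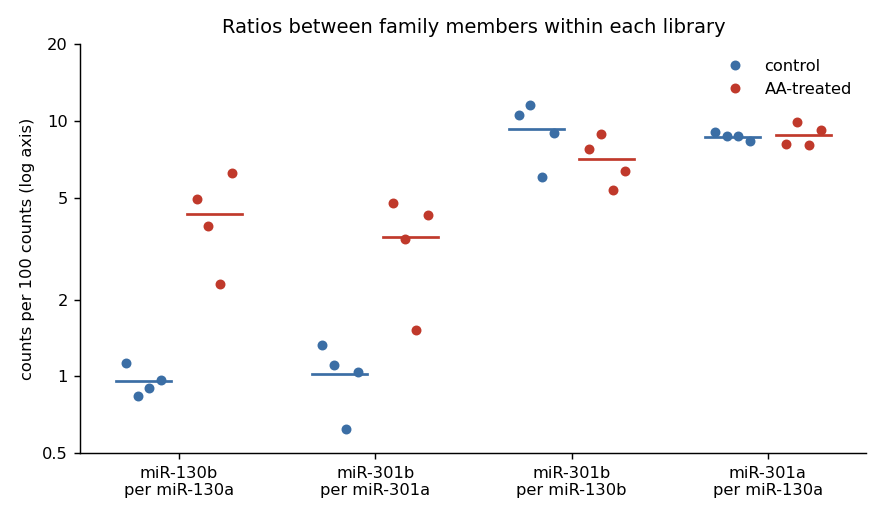
Counts of one member per 100 counts of another (y axis, logarithmic) in each control rat (blue) and AA-treated rat (red), with a bar at the mean of 4 rats. The 2 ratios between members of different pairs are higher in every AA-treated rat than in any control rat, and the 2 ratios within a pair overlap.

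The share of a hairpin's counts that fell on its asterisk arm was small for all 4 hairpins and overlapped between the groups. For miR-130b it was 1.20% of 499 counts in the control rats (exact 95% interval 0.443% to 2.6%) and 1.58% of 2793 counts in the AA-treated rats (1.15% to 2.11%). A change in the arm that is kept was therefore not detected for this hairpin at this depth, and one within these intervals would be missed. The miR-301b* arm took 0 of 45 counts in the control rats, which allows a share of up to 6.67% by a limit of 3 counts and 7.87% by the exact 95% interval, and 2.45% of 204 counts in the AA-treated rats (0.801% to 5.63%). For miR-130a the share was 0.189% (0.153% to 0.230%) and 0.237% (0.202% to 0.277%), and for miR-301a 0.879% (0.628% to 1.19%) and 1.05% (0.807% to 1.35%). These intervals treat the summed reads as independent and leave out the spread between rats.

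The summed level of the family moved less than the miRNAs of the pair. The 8 rows together had 12336 to 17272 normalized counts in controls and 14126 to 19545 after AA, with means of 15071 ± 2175 and 16993 ± 2267 (SD, n = 4 each). The ratio was 1.13, and the groups overlapped. rno-miR-130a supplied 90.4% to 91.3% of this sum in controls and 85.9% to 90.3% after AA, without overlap. rno-miR-130b supplied 0.763% to 1.02% in controls and 2.07% to 5.36% after AA, also without overlap. Both hairpins of the pair together went from 144 ± 20.03 to 676 ± 176 normalized counts (SD, n = 4 each), and those of miR-130a and miR-301a from 14927 ± 2165 to 16318 ± 2428.

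In the control rats the mean levels ran in the order miR-130a, miR-301a, miR-130b, miR-130a*, miR-301b, miR-301a*, miR-130b* and miR-301b*. The ranges of the first 3 did not touch, while those of miR-130a*, miR-301b and miR-301a* overlapped. In the AA-treated rats miR-301b stood before miR-130a*, with overlapping ranges, and the order was otherwise the same. Such an order also depends on how well each sequence is ligated and amplified, since reads and not molecules were counted.

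Over the 8 rats, the miRNAs most like each main arm were sought by the root mean square difference of log2 normalized counts, each centred on its mean, among 364 miRNAs outside the family with a mean of at least 10. The nearest to rno-miR-130b were miR-21, at 0.237, miR-132, at 0.264, and miR-146b, at 0.270, against a median of 1.21 over the 364. miR-21 and miR-146b are known from injured and inflamed kidney, and miR-132 from CREB signalling. miR-21 had 2392190 and 2445710 normalized counts in AA-treated rats 1 and 4, the rats highest in miR-130b. AA-treated rat 3, the lowest of its group in both miRNAs, had 1012260. miR-21 was picked for its likeness over these same rats, so this match follows from the choice. For rno-miR-301b the nearest were miR-21, miR-708 and miR-146b, at 0.313 to 0.356, and with a pseudocount of 5 instead of 1 they were miR-708, miR-21* and miR-708*. rno-miR-130b itself stood at 0.374 from rno-miR-301b with a pseudocount of 1. rno-miR-301b had only 8 to 15 counts per control rat, so its distances include counting error and their order is not settled.

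rno-miR-130a was nearest to miR-29a, at 0.0891, miR-145* and miR-29b, and rno-miR-301a to miR-29b, at 0.0716, miR-145 and miR-188. miR-130a and miR-301a were 0.0951 apart and 0.961 to 1.11 from the other 2 main arms. These profiles share the treatment groups and the libraries, and they are a description of 8 samples.

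**Figure D4:**
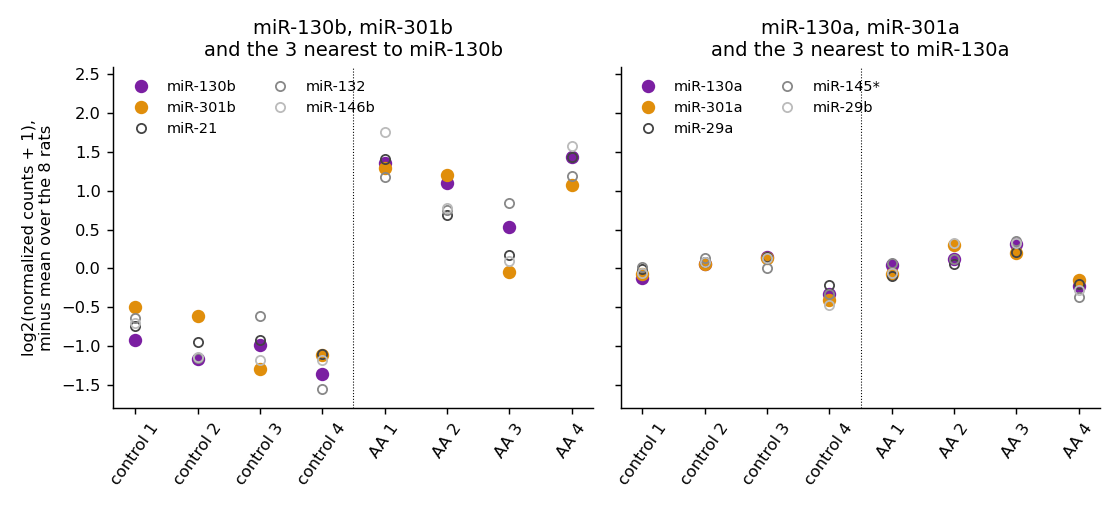
Log2 normalized counts (with a pseudocount of 1) minus the mean over the 8 rats (y axis) in each rat (x axis), for miR-130b and miR-301b with the 3 miRNAs nearest to miR-130b (left) and for miR-130a and miR-301a with the 3 nearest to miR-130a (right). For each miRNA in the left panel the AA-treated rats lie above the control rats, and for each in the right panel the groups overlap.

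Other miRNAs share 6 bases of the family seed in a shifted frame, and these were taken from RefSeq by sequence. They are miR-19a and miR-19b of the miR-17 cluster, known for promoting proliferation, the related miR-148b-3p and miR-152, and miR-291b, while miR-148a was not analysed here. The seeds of 2 of them are shown for the comparison with the family seed.

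rno-miR-19b: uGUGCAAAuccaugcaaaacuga

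rno-miR-152: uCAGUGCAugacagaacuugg

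Of these 5, 2 fell and 3 did not pass, and 20 of all 620 miRNAs fell by the same rule. For miR-152 the control rats ranged from 55990 to 85014 normalized counts and the AA-treated rats from 33155 to 45717, a log2 fold change of -0.81 with a standard error of 0.19 and an adjusted p of 0.0131 in edgeR's quasi-likelihood test. miR-148b-3p fell by 0.79 on the log2 scale with a standard error of 0.19 (adjusted p = 0.0154 in edgeR). Neither passed when libraries were scaled by their total counts. miR-19b was 1.49-fold higher, at 1520 to 2015 normalized counts in controls and 2492 to 2924 after AA (adjusted p = 0.0678 in edgeR). It passed with TMM normalization and with total counts. Its adjusted p was also under 0.05 in DESeq2 (0.00318). The same held in edgeR with the filter (0.0392), with the replicate block (0.0335) and without both rats numbered 4 (0.0427). In these settings miR-19b missed only the 1.5-fold threshold. miR-19a was 1.51-fold higher (adjusted p = 0.168 in edgeR), and miR-291b had at most 9 counts in any rat. The antisense neighbour of miR-130a, miR-3590-3p, had 0 to 9 counts per rat and overlapping groups.

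The libraries held 13412373 to 15616670 counts on miRNAs. The 5 tubule markers (miR-192, miR-194, miR-204, miR-30a and miR-30d) were all present. They summed to between 2353320 and 3383830 normalized counts in controls and between 1678840 and 2440340 after AA, so that the groups overlapped. Of the 5, only miR-204 passed, and it was lower. Of 5 leukocyte markers 4 were listed, and none was at 0. miR-142-3p and miR-223 rose and miR-142-5p and miR-150 did not pass, while 5.81% of all miRNAs rose. The 4 listed markers summed to between 13715 and 17802 in controls and between 29485 and 56648 after AA. The 6 miRNAs of the miR-17 cluster, miR-19a and miR-19b among them, summed to between 13582 and 22464 in controls and between 23652 and 31071 after AA, with miR-18a passing. Sums of the fibroblast and smooth muscle, endothelial and red cell lists overlapped between the groups, with 5 of 5, 2 of 2 and 2 of 3 markers listed, and none of these miRNAs passed. Among the AA-treated rats the leukocyte sum was lowest in rat 3, as were miR-130b and miR-301b, and also miR-21 and miR-146b. The leukocyte sum and miR-130b were highest in AA-treated rat 4, whereas miR-301b was highest in AA-treated rat 1. AA-treated rats 1 and 2 stood in opposite orders, with leukocyte sums of 35347 and 42145 and miR-130b at 720 and 599. The miR-17 cluster sum was lowest in AA-treated rat 4, at 23652. The part of leukocytes in the rise of miR-130b and miR-301b was not tested.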

How the data were processed

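Small RNA of 4 AA-treated and 4 control rat kidneys was sequenced on an Illumina Genome Analyzer II, with CASAVA 1.7 named in the submitters' processing notes. The authors assigned trimmed, grouped reads to rat miRNAs of miRBase release 16 with miRanalyzer. The deposited values are raw counts for each mature miRNA in each rat. How reads matching several miRNAs were counted is not given in the sources used here. Since rno-miR-130a and rno-miR-130b differ at 2 positions, whether reads of one were counted for the other was not tested. The sample descriptions give 12, 13, 14 and 15 weeks of treatment for rats 1 to 4 of each group, whereas the protocol gives 12.

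Size factors by median of ratios (0.818 to 1.28) scaled the counts. All 620 miRNAs were fitted with edgeR 4.0.16 (R 4.3.3, quasi-likelihood, no covariate, no filter) with Benjamini-Hochberg adjustment, and a miRNA passed at an adjusted p under 0.05 with mean normalized counts differing over 1.5-fold. The model was tested on simulated data. Of the 8 family rows, 6 had at least 1 count in every rat. No 2 libraries of the same group were alike within sampling noise (smallest chi-square per degree of freedom 394). Members, lists and tests were chosen with earlier results of these data known. Named miRNAs were all family rows, those with a shifted seed, the overlapping miRNA gene, the 3 nearest profiles of each main arm and the marker lists. TMM, total counts, DESeq2 1.42.0, limma-voom (limma 3.58.1), a filter, other fold thresholds, a replicate block and leaving out rats were the alternatives.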

Additional observations from a re-analysis of the deposited data

How the results depend on the processing

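rno-miR-130b and rno-miR-301b passed both thresholds under each of 15 alternatives, with log2 fold changes of 2.07 to 2.50 and 1.74 to 2.15, and rno-miR-130b* under 10 of 14, with 1.97 to 3.04. It was not tested with the filter of a mean of at least 10 counts. rno-miR-130a (0.03 to 0.38), rno-miR-301a (0.03 to 0.40), rno-miR-130a* (0.21 to 0.75) and rno-miR-301a* (0.10 to 0.66) passed under none of their 15. Total counts moved the median log2 fold change over the whole table from 0.05 to 0.31, and the miRNAs that rose from 36 of 56 (64.3%) to 58 of 69 (84.1%). In that setting 1 of the 5 miRNAs with a shifted seed passed, miR-19b, in place of 2. With a fold change threshold of 2 in edgeR 0 of them passed, since miR-148b-3p and miR-152 were 1.72-fold and 1.75-fold lower. The family sum had a ratio of 1.06 to 1.20 with each rat left out and 1.34 with total counts.

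With the rat number as a replicate block, 74 miRNAs passed in place of 56, and the same 3 family rows passed. The main fit did not take the numbers to pair the rats, since same-numbered rats are different animals. Whether the numbers mark something the rats share is not settled by the correlations that follow. Between same-numbered rats, deviations from the group means correlated at -0.01 to 0.34 over 370 miRNAs, over 0.1 in 3 of 4 pairs. Between control and AA-treated rats of different numbers they correlated at -0.28 to 0.25. Of the 8 rats, 5 correlated best with their own number. The descriptions also give same-numbered rats the same weeks of treatment. The family sum, rno-miR-130a and rno-miR-301a were each higher in the AA-treated rat of 4 of 4 same-numbered pairs, and miR-301b per 100 counts of miR-130b was lower in 4 of 4. With the block, rno-miR-130a and rno-miR-301a had log2 fold changes of 0.13 and 0.14 and did not pass. The 13412373 counts of the smallest library limit rno-miR-130b* and rno-miR-301b*, with at most 17 and 3 counts per rat.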

Other observations

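The table also lists 2 rows of these hairpins spelled in lower case, rno-mir-130a* and rno-mir-130b*, which the family as defined here leaves out. rno-mir-130a* had between 0 and 3 counts per control rat and between 1 and 5 per AA-treated rat. rno-mir-130b* had 2 counts in control rat 3 and none in the other 7 rats. What distinguishes them from the rows with the same name in capitals is not given in the sources used here. With both rows included, an alternative chosen after seeing the data, the ratio of the summed family levels stayed at 1.13.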
